A study of Mus musculus with 7 samples.

Results

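Outside genes, 2429 regions of open chromatin were shared by some but not all of the libraries and lay more than 1 kb and at most 100 kb from the nearest protein-coding gene. The cells were neural progenitors of the dorsal telencephalon, taken from CD-1 embryos at E14.5 and sorted for CD15, and accessible DNA was mapped by ATAC-seq, a method in which a transposase cuts open chromatin and tags the ends for sequencing. The libraries were 4 from L3mbtl3 -/- embryos (KO) and 3 from wild-type embryos (WT). The age label reads embryonic day 14 and the titles E14.5, and a growth note common to all libraries mentions heterozygous cells although none is labelled so. What all libraries share is the strain, the stage and the sort, and the labels do not say whether each library came from its own embryo or how the allele was made. The p-values below therefore measure the spread between these libraries, which may be technical.

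Each library has 1 list of broad peaks, called by the authors in that library alone. The 60968 peaks on chromosomes 1 to 19 were joined wherever they shared at least 1 bp, which gave 24734 regions. A library calls a region where it has a peak in it. Of the regions, 11536 were called in 2 to 6 of the 7 libraries, and 2429 of these touched none of the 20665 protein-coding gene spans of the RefSeq annotation on GRCm38 and had their nearest span within the distance limits. These members are 9.82% of all regions and 21.1% of those called in 2 to 6 libraries. The numbers of calling libraries and the distances chose the members and are given as a description. No read counts come with the lists, and the depth behind each is unknown.

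Distal accessible regions include enhancers, DNA elements that transcription factors bind and that can raise transcription of a gene at a distance, and also insulators and starts of non-coding transcripts. The nearest gene is not always the gene that such an element acts on. The product of L3mbtl3 carries malignant brain tumour (MBT) domains, which bind methylated lysines, and is related to Polycomb group proteins. CD15 is a surface carbohydrate of neural stem and progenitor cells. In the dorsal telencephalon these progenitors, called radial glia, produce the excitatory neurons of the cortex under transcription factors such as Emx1, Emx2 and the proneural bHLH factors.

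No genome sequence was used here, so sequence is shown where a member covers part or all of the promoter window of a non-coding gene, 250 bases before to 50 after its start. This was so for 75 members and 86 windows. The stretches below are the bases of the window inside the member, 5′ to 3′ on the gene's strand, from RefSeq on GRCm38.p6. They were chosen because they lie near genes of cortical patterning and Notch signalling (Emx1, Dll1), near a gene with many members (Bmper), or in members called in every WT library and no KO library (Il21, Abca1). Capitals mark CAGCTG and CAGATG (E-boxes, the kind of site that bHLH factors bind), TAATTA (a homeodomain core) and TGACAG (a Meis core) on either strand, and TTGGCA (part of an NFI site) was searched as well.
Gm33200 (near Emx1, chr6:85165585-85165836, plus strand): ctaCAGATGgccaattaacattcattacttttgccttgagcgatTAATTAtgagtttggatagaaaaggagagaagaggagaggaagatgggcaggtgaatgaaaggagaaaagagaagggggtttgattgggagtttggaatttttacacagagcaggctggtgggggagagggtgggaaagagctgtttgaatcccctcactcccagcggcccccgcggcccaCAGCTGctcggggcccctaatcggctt
Gm35576 (near Dll1, chr17:15285367-15285666, minus strand): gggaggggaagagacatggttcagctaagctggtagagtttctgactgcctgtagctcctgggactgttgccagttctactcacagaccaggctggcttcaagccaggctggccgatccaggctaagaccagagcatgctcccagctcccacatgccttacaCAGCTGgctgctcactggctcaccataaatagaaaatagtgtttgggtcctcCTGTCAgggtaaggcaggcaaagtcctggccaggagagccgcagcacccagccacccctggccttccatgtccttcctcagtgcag
Gm39311 (near Bmper, chr9:23581024-23581323, plus strand): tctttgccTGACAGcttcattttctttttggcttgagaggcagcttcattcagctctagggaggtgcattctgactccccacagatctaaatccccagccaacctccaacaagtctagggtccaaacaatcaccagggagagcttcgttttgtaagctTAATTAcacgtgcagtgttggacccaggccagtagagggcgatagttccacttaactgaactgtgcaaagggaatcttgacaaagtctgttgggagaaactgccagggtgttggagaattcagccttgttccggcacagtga
Gm12532 (near Il21, chr3:37182635-37182864, plus strand): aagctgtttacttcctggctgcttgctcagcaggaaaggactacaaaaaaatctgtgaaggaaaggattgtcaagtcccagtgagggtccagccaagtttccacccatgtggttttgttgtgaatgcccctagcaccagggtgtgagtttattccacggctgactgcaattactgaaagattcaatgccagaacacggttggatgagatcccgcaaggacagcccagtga
Lexis1 (near Abca1, chr4:53218865-53218931, minus strand): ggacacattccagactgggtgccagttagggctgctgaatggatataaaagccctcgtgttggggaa
The stretch near Emx1 held both E-box forms with a homeodomain core. The stretches near Il21 and Abca1 held none of the searched letters, which says only that these letters are absent from these bases. Over the 86 windows CAGCTG was present in 15.1%, against 16.3% of all 31396 promoter windows. CAGATG was present in 18.6% against 17.2%, and TAATTA in 6.98% against 5.27%. TGACAG was present in 17.4% against 19.05%, and TTGGCA in 22.1% against 14.1%. The windows were searched whole, both strands were read, and a match is a description and not a bound site.

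The members had a median width of 237 bp and ran from 90 to 1833 bp. The number of callers was 2 in 957 members, 3 in 519, 4 in 365, 5 in 318 and 6 in 270. The peaks of all callers shared at least 1 base in 96.5% of members with 3 callers, 92.3% with 4, 91.2% with 5 and 92.2% with 6, which joining does not ensure as it does for 2. Members called more often also ranked higher within each list. This rank is the percentile of a peak's fold enrichment, the authors' ratio of signal over the peak caller's background, among the peaks of its own library. Averaged over its callers, the median rank was 36.8 for members with 2 callers, 44.1 with 3, 47.4 with 4, 52.3 with 5 and 61.9 with 6. Just outside the rule, 2975 regions at the same distances were called in 1 library and had a median of 23.2, and 221 were called in 7 and had a median of 74.7.

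The median distance to the nearest gene was 31.2 kb, with quartiles of 12.4 and 58.7 kb. Within 10 kb lay 501 members (20.6%), 547 lay at 10 to 25 kb, 590 at 25 to 50 kb and 791 (32.6%) at 50 to 100 kb. Set against the intergenic space at each distance, members became denser away from genes. There were 2.27 members per Mb at 1 to 5 kb, 2.68 at 5 to 10 kb, 3.02 at 10 to 25 kb, 3.56 at 25 to 50 kb and 4.30 at 50 to 100 kb. The farthest band was denser than the nearest in 7 of 7 libraries. In the KO libraries it held 2.70, 1.94, 0.517 and 3.29 called members per Mb, against 1.18, 0.735, 0.386 and 1.80 in the nearest band. In the WT libraries it held 1.86, 2.95 and 1.51, against 0.895, 1.26 and 0.772. Space far from genes exists only where genes are far apart, so distance and gene density cannot be told apart here.

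The limits cut through a continuous range of distances. The member nearest to its gene lay 1001 bp from Fgf15, and a region 984 bp from Rnase6 fell just outside. The farthest lay 99970 bp from Lyplal1, and a region 100011 bp from Cdh26 fell just outside. These 4 regions had mean ranks between 40.4 and 48.9.

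Members lay on both sides of genes alike. For the 1900 members whose gene had a strand in the promoter table, 956 lay before the gene's start and 944 beyond its end. In 981 members (40.4%) the gene on the other side was within 100 kb as well, so that the nearest gene is not the only candidate. In 529 members (21.8%) that other gene was at most 2 times as far away as the nearest. Another member lay within 10 kb of 233 members (9.59%) and within 2 kb of 70 (2.88%). By chromosome the density ran from 1.84 members per Mb on chromosome 7 to 4.44 on chromosome 3.

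Genes for long non-coding RNA overlapped a small part of these regions. Such a span was touched by 419 members (17.2%), and among shared regions more than 100 kb from a gene by 16.1%. The member's midpoint lay in such a span in 15.8%, while these spans cover 13.2% of the intergenic space searched. Small RNA genes were touched more rarely, with a tRNA gene in 12 members and a small nuclear RNA gene in 10. One of these was Rn7sk, the RNA that holds the elongation factor P-TEFb inactive, on chr9:78175344-78175935, which was called in 3 KO and 1 WT libraries. A cluster of 3 tRNA genes lay under a single member near Trim55, called in 3 KO and 3 WT libraries.

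MicroRNAs carry their target choice in the seed, bases 2 to 8 of the mature strand. The hairpin genes Mir760, Mir7-2 and Mir210 lay within 500 bp of a member and Mir713 was touched by one. One mature strand of each is shown, so that the microRNA can be identified, with the seed in capitals, from RefSeq on GRCm38.p6.
mmu-miR-760-3p: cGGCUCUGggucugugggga
mmu-miR-7a-5p: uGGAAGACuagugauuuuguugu
mmu-miR-210-3p: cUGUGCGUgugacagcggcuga
mmu-miR-713: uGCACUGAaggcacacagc
The 4 seeds differ from each other. The member 277 bp from Mir760 was called in 2 KO libraries and no WT library, a pattern of 11.6% of all members and 10.3% of all shared regions. The member 445 bp from Mir7-2, a microRNA gene with roles in neurons and endocrine cells, was called in 3 KO libraries and no WT library. That pattern was found in 2.06% of all members and 2.20% of all shared regions. The member 260 bp from Mir210, a hypoxia-responsive microRNA gene, was called in 1 KO and 2 WT libraries, and so was the one touching Mir713. This was so for 6.92% of all members and 7.01% of all shared regions.

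The first comparison asked whether KO libraries called these regions more or less often than WT libraries. KO libraries called 1402, 977, 352 and 1940 members, and WT libraries 1040, 1589 and 841. KO libraries 3 and 4 held the lowest and the highest count of the 7, so that the WT counts lay inside the KO range. The means were 1168 ± 672 in KO (SD, n = 4) and 1157 ± 387 in WT (SD, n = 3), a difference of 11.1 members (p = 1, two-sided exact permutation test over 35 splits, smallest possible p 0.0286). The count followed the length of the list, since the same libraries called 9517, 6889, 3275 and 16772 regions of any kind in KO and 7208, 11006 and 6193 in WT.

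**Figure D1:**
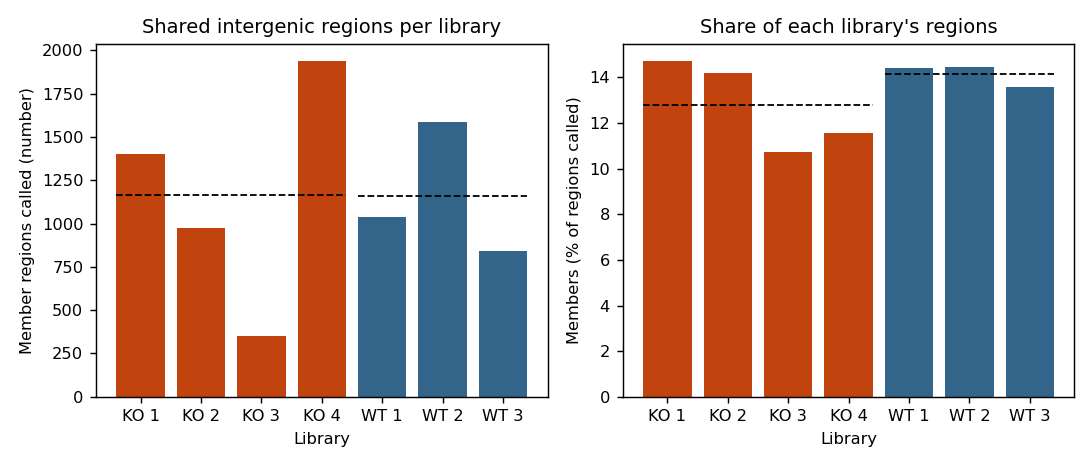
Member regions called in each library (left, number) and members as a share of all regions that the library called (right, %), with dashed lines at the group means. KO counts run from 352 to 1940 and enclose the WT counts of 841 to 1589, and KO shares run from 10.7 to 14.7% against 13.6 to 14.4% in WT.

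Taken as a share of all regions a library called, members made up 14.7, 14.2, 10.7 and 11.6% in KO libraries, against 14.4, 14.4 and 13.6% in WT libraries. KO libraries 3 and 4, the shortest and the longest list, were both below the WT libraries, and the other KO libraries overlapped them. The mean share was 12.8 ± 1.95% in KO and 14.1 ± 0.493% in WT, which differed by −1.34 percentage points (p = 0.371, exact permutation test). Median ranks of member peaks were 46.4, 44.2, 39.5 and 56.3 in KO libraries and 43.3, 48.7 and 48.0 in WT libraries, with a difference of −0.0583 (p = 1, exact permutation test). KO library 4 ranked highest and KO library 3 lowest.

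Libraries of the same genotype shared, on average, no more members than libraries of different genotype. The Jaccard index, members called in both libraries over members called in either, averaged 0.294 for pairs of 1 genotype and 0.313 for mixed pairs, a difference of −0.0189 (p = 0.6, exact permutation test). The pair with the highest index was mixed, KO library 4 with WT library 2, at 0.553. The pair with the lowest was mixed too, KO library 3 with WT library 3, at 0.0985. The index cannot exceed the smaller count over the larger, and KO library 3, with 352 members, reached at most 0.150 in any pair. With 1 library left out the difference ran from −0.0519 to 0.00332, and without KO library 3 it was −0.00655. The part of list length in it was not tested. After Benjamini-Hochberg adjustment over these 4 comparisons every p was 1.

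Most members were called in both genotypes. Both called 1994 (82.1%), KO libraries alone called 335 (13.8%) and WT libraries alone called 100 (4.12%). All regions called in 2 to 6 libraries gave a similar split, with 12.8% called in KO alone and 3.18% in WT alone. There are 4 KO libraries and 3 WT libraries, so more sets of callers are KO alone. Of the 335 members called in KO alone, 293 included KO library 4, and 147 were called in KO libraries 1 and 4 and nowhere else. The share of libraries calling a member was higher in KO for 1070 members (44.1%) and higher in WT for 1359 (55.9%), and over all shared regions the split was 44.9% and 55.1%. A member called in as many KO as WT libraries counts as higher in WT, since there are 4 KO and 3 WT libraries. The 1359 include 581 members called in 1 library of each genotype, 205 in 2 of each and 194 in 3 of each. Without KO library 4 the split of members was 24.99% and 46.9%, with the rest equal. These were still the members chosen with the calls of KO library 4. A member called in that library and 1 WT library alone then counts as higher in WT, as for the 204 called only in KO library 4 and WT library 2. This split was not made over all shared regions, so it is no measure of genotype. Among the 270 members with 6 callers, the missing library was KO 3 in 160 and WT 3 in 52.

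**Figure D2:**
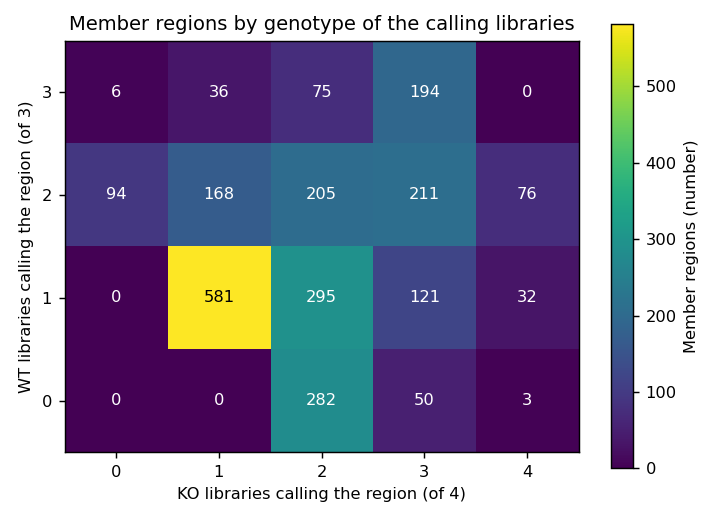
Member regions by the number of KO libraries (horizontal axis, of 4) and WT libraries (vertical axis, of 3) that called them, with the number of members in each cell. The fullest cell, 581 members, is called in 1 KO and 1 WT library, and 3 members were called in every KO and no WT library while 6 were called in every WT and no KO library.

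Few members were called by all libraries of 1 genotype while absent from the other. In all KO and no WT libraries there were 3 (0.124%), and the same pattern was found in 0.109% of all regions and 0.234% of those called in 2 to 6 libraries. In all WT and no KO libraries there were 6 (0.247%), against 0.121% of all regions and 0.260% of those called in 2 to 6 libraries. The KO share was below that of the shared regions as a whole and the WT share close to it, on counts of 3 and 6. No test was aimed at these 9 members, which the pattern itself picks out, though some of them enter the tests per gene below. Both counts moved with the libraries required. The first was 38 without KO library 3, 22 without WT library 2, 12 without KO library 2 or WT library 1, 8 without KO library 1, 7 without WT library 3 and 4 without KO library 4. The second was 49 without WT library 3, 41 without WT library 1, 28 without KO library 4, 22 without WT library 2, 15 without KO library 1, 10 without KO library 2 and 7 without KO library 3.

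The 3 called in KO lay 67.0 kb before Zfp217, 86.9 kb before E2f7 and 66.8 kb beyond Glis3. Zfp217 encodes a zinc-finger transcription factor, E2f7 an E2F factor that represses cell-cycle genes and Glis3 a Krüppel-like zinc-finger factor. At the Zfp217 region (chr2:170218704-170219010) the authors' fold enrichment was 6.09, 4.30, 5.23 and 5.26 in KO libraries 1 to 4, with no peak in WT libraries. At the E2f7 region (chr10:110658374-110658528) it was 5.17, 4.43, 3.65 and 4.28, and at the Glis3 region (chr19:28191625-28192007) it was 6.14, 4.20, 3.65 and 4.58. Their mean ranks were 67.6, 37.5 and 42.8, so that 1 of the 3 stood in the upper part of the lists. All 3 lay more than 50 kb from the gene, and each gene had a second member that was called in at least 1 WT library.

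The 6 called in WT lay near Cavin2, Wdfy1, Fmo2, Il21, Lce1i and Abca1. Il21 encodes a cytokine of lymphocytes, Lce1i a late cornified envelope protein of skin, Fmo2 a flavin monooxygenase, Abca1 a cholesterol exporter, Cavin2 a coat protein of caveolae and Wdfy1 an endosomal adaptor. The Il21 region (chr3:37182624-37182864), 39.9 kb beyond the gene, had a fold enrichment of 5.45, 5.23 and 4.20 in WT libraries 1 to 3 and the highest mean rank of the 6, at 62.6. The Abca1 region (chr4:53218865-53218997), 58.9 kb before the gene and reaching into the promoter window of the non-coding gene Lexis1, had 4.42, 4.90 and 4.50. The lowest mean rank was at the Fmo2 region (chr1:162901951-162902171), 3.19 kb from the gene, at 28.8. For Wdfy1, Fmo2, Il21 and Lce1i this was the only member, while Cavin2 and Abca1 had further members called in KO libraries too.

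The next question was which genes the members lie nearest to. A gene can have a member only if it has intergenic space 1 to 100 kb away that is nearest to it, as 18455 genes did. Of these 1882 (10.2%) had at least 1 member and 416 (2.25%) had 2 or more. The nearest space had a median of 19.9 kb per gene over all genes and 101 kb over genes with a member, and its part in the counts per gene was not tested. One member each lay nearest to 1466 genes, 2 to 316, 3 to 78, 4 to 15, 5 to 5 and 6 to 2. The 416 genes with several members held 963 of the 2429 members (39.6%).

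Gm15319 and Fam181b had 6 members each. Gm15319 is a predicted gene on chromosome 8, and KO libraries called 4, 3, 0 and 6 of its regions against 3, 5 and 2 in WT libraries. At Fam181b KO libraries called 5, 3, 0 and 4 regions, against 1, 2 and 0 in WT libraries. Of its 6 members 4 were called in 2 KO libraries and no WT library, a pattern of 11.6% of all members and 10.3% of all shared regions. KO library 3 overlapped the WT values. The Fam181b difference of 2.0 regions per library had p = 0.257 in the exact permutation test and an adjusted p of 1 over all 1882 genes. The members stood 71.9, 56.2 and 41.8 kb before the gene and 11.98, 13.8 and 28.8 kb beyond it.

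Bmper, Mycn, Tns3, Myo16 and Rgs2 had 5 members each. Bmper, a secreted regulator of BMP signalling, had 5, 3, 2 and 4 regions called in KO libraries and 3, 4 and 2 in WT libraries. Its members included a pair 94.99 and 95.7 kb beyond the gene, of which chr9:23580208-23580471 was called in 3 KO and 3 WT libraries and chr9:23580937-23581430 in 4 KO and 1 WT libraries. The second of the pair covers the start of Gm39311, whose bases are given above. Mycn, a Myc family factor that drives progenitor proliferation, had 4, 3, 2 and 4 regions called in KO libraries and 2, 4 and 2 in WT libraries. Its member 69.6 kb before the gene (chr12:13011426-13011668) had the highest mean rank of the 5, at 74.5, and was called in 3 KO and 3 WT libraries. The ranges of the genotypes overlapped at both genes.

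Tns3, a focal adhesion protein, had 4, 2, 0 and 3 regions called in KO libraries and 4, 4 and 2 in WT libraries. Myo16, an unconventional myosin of neurons, had 3, 1, 1 and 5 in KO libraries and 0, 5 and 2 in WT libraries. Rgs2, a regulator of G protein signalling, had 2, 2, 0 and 5 in KO libraries and 1, 4 and 1 in WT libraries. In each of these the WT values lay within or overlapped the KO range. At Rgs2 a single member, 26.5 kb before the gene (chr1:144030620-144030789), had 6 callers and a mean rank of 92.9, while the other 4 had 2 or 3 callers and ranks from 11.1 to 49.5.

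Genes with 4 members included Cobl, an actin nucleator, Slc30a8, a zinc transporter, Chl1, a neural adhesion molecule of the L1 family, Dkk2, a secreted modulator of Wnt signalling, and Meis1, a homeodomain factor. KO libraries called 2, 3, 2 and 4 regions at Cobl, against 4, 3 and 1 in WT libraries. At Dkk2 they called 3, 3, 0 and 3 against 1, 3 and 3, and at Meis1 3, 2, 1 and 4 against 2, 3 and 1. Over the 22 genes with 4 or more members, the mean per library was higher in KO at 13, higher in WT at 8 and equal at 1, while over all 1882 genes it was higher in KO at 809, higher in WT at 1047 and equal at 26. A gene with as many calls in KO as in WT libraries counts as higher in WT here, since there are more KO libraries. The smallest p among the 22 genes was 0.257 (exact permutation test). Of all 1882 genes tested in the same way, 0 (0%) passed an adjusted p of 0.05 and 6 (0.319%) had an unadjusted p under 0.05. Fmo2, Il21, Lce1i and Wdfy1 were among the 6, each through its only member, called in every WT and no KO library. The smallest possible p in this design is 0.0286, so a gene could pass the adjustment only if most of the 1882 genes reached that p. That 0 genes passed therefore says little about any single gene.

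**Figure D3:**
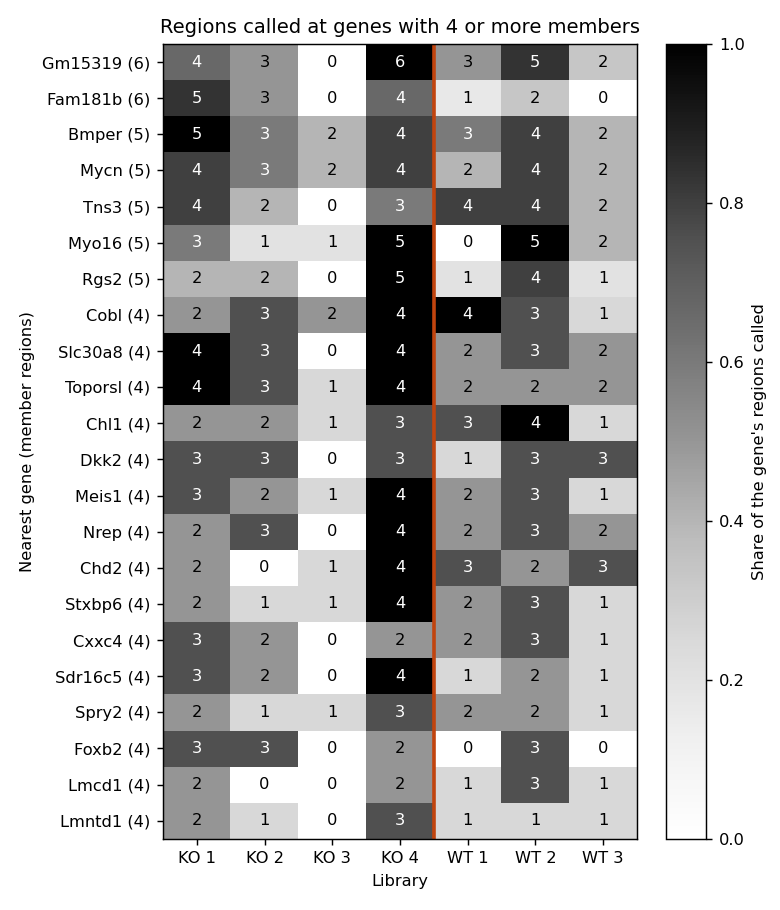
Member regions called in each library at the 22 genes with 4 or more members, with the number of members in brackets, the number called in each cell and the shade giving the share of the gene's members called. KO library 3 called 0 of them at 12 genes and no other library left out as many.

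The members that ranked highest among those with 6 callers lay near Lrrn1, Stxbp5, Rgs2, Pcdh9, Trhr, Wdr20rt, Immp2l and Kcnh5, with mean ranks from 91.1 to 96.0. KO library 3 was the library without a call at each of the 8. Near Lrrn1, a leucine-rich repeat protein of neurons, chr6:107462511-107462836 had a fold enrichment of 8.08, 7.16 and 7.19 in KO libraries 1, 2 and 4 and of 6.23, 7.53 and 5.96 in WT libraries. Near Pcdh9, a protocadherin, chr14:92958092-92958429 had 9.53, 6.88 and 6.33 in KO libraries 1, 2 and 4 and 7.18, 6.97 and 4.95 in WT libraries. Fold enrichments are each list's own values, and they are not compared between libraries.

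The 14 gene lists for this tissue covered 302 entries and were compared by members per Mb of the space nearest to their genes. Over all genes there were 3.31 members per Mb. The proneural bHLH list reached 8.47 per Mb, with 11 members at 7 of 18 genes. Dorsal patterning factors had 6.74 with 14 members at 9 of 19 autosomal genes, Meis, Pbx and Tead factors 6.64 with 6 members at 3 of 13 genes with such space, and radial glia genes 5.65 with 15 members at 9 of 27. Axon guidance genes had 5.57 with 23 members at 18 of 30, cadherins and other adhesion genes 5.38 with 27 members at 14 of 28, and cortical layer factors 4.25 with 15 members at 11 of 24. The remaining 7 lists, of other cell types, Hox genes and Polycomb complexes, had 0 to 3.42 per Mb. Counts are small and no test was run on these densities. Over all members density rose with distance, from 2.27 per Mb at 1 to 5 kb to 4.30 at 50 to 100 kb. The median nearest space per gene ran from 3.04 kb in the Hox list to 198 kb in the adhesion list. The density of 3.31 over all genes is therefore not matched to the lists for distance.

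**Figure D4:**
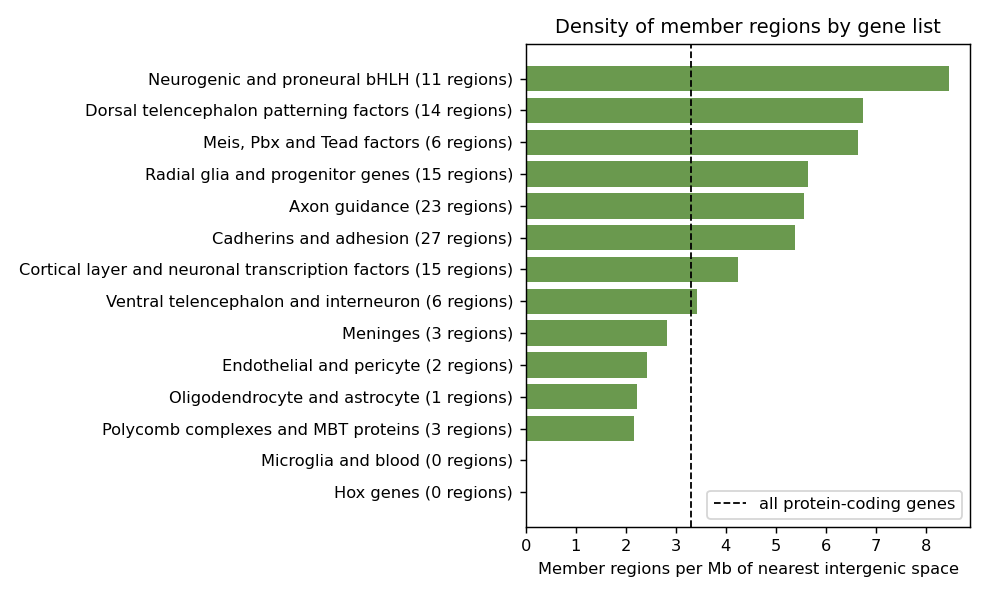
Member regions per Mb of intergenic space nearest to the genes of each list (bars, with the number of members in brackets), beside the density over all protein-coding genes (dashed line, 3.31 per Mb). The proneural bHLH list is at 8.47 per Mb and the Hox and microglia lists are at 0.

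Among proneural and related bHLH genes, Olig3 had 3 members, Neurog2 had 2, and Bhlhe22, Hes1, Neurod4 and Neurod6 had 1 each. Neurog2 starts the programme of excitatory cortical neurons, and Hes1 is a Notch effector that keeps progenitors undifferentiated. At Neurog2 KO libraries called 1, 0, 1 and 2 regions and WT libraries 1, 1 and 0. Its members lay 6.39 kb before the gene (chr3:127625754-127626343) and 10.7 kb beyond it (chr3:127646358-127646677), and each was called in 2 KO and 1 WT libraries. At Olig3 KO libraries called 2, 3, 1 and 3 and WT libraries 2, 3 and 0. Over the whole list KO libraries called 4, 4, 3 and 9 of the 11 members and WT libraries 7, 8 and 1, so KO library 4 stood above the others and WT library 3 below.

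Of the dorsal patterning factors, Emx2, Sp8 and Dmrta1 had 2 members each, and Emx1, Lhx2, Gli3, Dmrt3 and Nr2f2 had 1 each. At Emx2, a homeodomain factor of medial cortex, KO libraries called 0, 0, 0 and 1 regions, against 1, 1 and 1 in WT libraries. The genotypes overlap there through KO library 4. The WT calls came from different regions, and neither was called in all WT libraries. One (chr19:59422482-59422763) was called in WT libraries 2 and 3 at a mean rank of 7.11. The other (chr19:59541722-59541841) was called in WT library 1 and KO library 4. At Sp8, a zinc-finger factor of rostral cortex, KO libraries called 1, 2, 0 and 2 and WT libraries 1, 1 and 0.

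Among radial glia genes, Slc1a3, a glutamate transporter, and Ptprz1, a receptor phosphatase, had 3 members each. KO libraries called 2, 2, 0 and 3 regions at Slc1a3 and WT libraries 2, 2 and 2. At Ptprz1 KO libraries called 1, 0, 0 and 1, against 1, 2 and 2 in WT libraries, with overlap at 1 region. Dll1, a Notch ligand, had 2 members. One of them (chr17:15285314-15285914) was called in 2 KO libraries and no WT library and covers the start of Gm35576. The other (chr17:15323211-15323627) was called in 1 KO and 3 WT libraries. The first pattern was found in 11.6% of all members and 10.3% of all shared regions, and the second in 1.48% and 1.27%.

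Adhesion and guidance genes, the lists with the most nearest space, had 27 and 23 members. Cdh6, Cdh7, Cdh11 and Pcdh18, all of the cadherin superfamily, had 3 each. KO libraries called 2, 1, 2 and 3 regions at Cdh11, against 1, 3 and 1 in WT libraries. Robo1, a receptor for the repellent Slit, also had 3. KO libraries called 2, 1, 0 and 2 of them and WT libraries 3, 3 and 2. The member 29.3 kb before Robo1 (chr16:71998002-71998187) had a mean rank of 90.5. Sema6a had 3 members and Nrp1, a semaphorin co-receptor, had 2. Of the layer factors, Rorb, Mef2c, Pou3f2 and Zfpm2 had 2 members each. Mef2c was called at 1, 0, 0 and 1 in KO libraries and 2, 1 and 2 in WT libraries.

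The whole-list counts overlapped between genotypes in each of the 12 lists that had a member. Cadherin and adhesion genes had 18, 10, 6 and 20 members called in KO libraries and 17, 23 and 10 in WT libraries. Axon guidance genes had 17, 15, 4 and 17 in KO libraries and 11, 18 and 10 in WT libraries. Cortical layer factors had 8, 6, 0 and 13 in KO libraries and 8, 12 and 7 in WT libraries. The median difference per gene between KO and WT was −0.0833 regions per library over all 1882 genes, 0.125 over axon guidance genes, −0.208 over adhesion genes and −0.167 over dorsal patterning genes. Equal numbers of calls give a negative difference, since there are more KO than WT libraries. No gene of any list passed the adjusted test, and none had an unadjusted p under 0.05.

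Polycomb and MBT genes had 3 members, 1 each nearest to L3mbtl4, Mtf2 and Rybp, or 2.16 per Mb. Their nearest genes are 9.68% of the 31 listed genes with such space, beside 10.2% of all genes, and the density of all genes would give 4.599 members. L3mbtl3 itself had none, and 3 intergenic regions were nearest to it whatever their number of callers. Peak calls do not test whether the allele is deleted. Among markers of other cell types there was 1 member at 9 autosomal oligodendrocyte and astrocyte genes, 2 at 10 endothelial genes and 3 at 10 meningeal genes. The density of all genes would give 1.48, 2.73 and 3.51 members in these spaces, so the counts were near the overall density. Microglia and blood genes had 0 members in 0.400 Mb and Hox genes, which the telencephalon keeps silent, 0 in 0.504 Mb. At the density of all genes these spaces would hold 1.32 and 1.67 members, so counts of 0 are not far from it. None of these numbers takes the distance to the gene into account. Ventral telencephalon and interneuron genes had 6 members at 5 of 19 genes, or 3.42 per Mb, of which 2 lay near Nkx2-1.

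Members were last set beside the other regions called in 2 to 6 libraries, grouped by place: 2294 at a gene end (within 1 kb of the start or end of a gene span), 3924 inside genes and 2889 more than 100 kb from any gene. This comparison was added after the data had been seen, and it pairs the classes within each of the 7 libraries. Member peaks ranked lower in fold enrichment than peaks at gene ends in 7 of 7 libraries, with medians of 46.6 ± 5.30 and 53.0 ± 8.29 (SD, n = 7). The difference of −6.34 percentile points had an adjusted p of 0.0313 (exact sign-flip permutation test, Benjamini-Hochberg over 6 comparisons). Against regions inside genes, at 47.3, the difference was −0.694 (adjusted p = 0.356, exact). Against regions beyond 100 kb, at 50.4 ± 5.13, it was −3.74 and lower in 7 of 7 libraries (adjusted p = 0.0313, exact). That difference ran from −7.40 to −0.00596 points over the libraries, and the smallest, in KO library 4, was nearly a tie. With 1 library left out, these gaps to gene ends and to regions beyond 100 kb were −6.98 to −5.40 and −4.36 to −3.12. The exact test over 6 libraries cannot give a p below 0.0313 before adjustment, so the adjusted p of 0.0469 to 0.0625 in these cases says nothing about stability.

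Members also had fewer callers, with a mean of 3.35, than regions at gene ends (3.48), inside genes (3.45) and beyond 100 kb (3.59). With each number of callers given equal weight, the difference in rank from regions beyond 100 kb was −0.431 (adjusted p = 0.938, exact) and the one from gene ends −5.36 (adjusted p = 0.0469, exact). Member peaks were narrower than those beyond 100 kb, with a mean of the medians of 154 against 167 bp and a difference of −12.9 bp (lower in 7 of 7 libraries, adjusted p = 0.0313, exact). With equal weight for each number of callers that difference was −7.41 bp (adjusted p = 0.0469, exact). The widths of member peaks and gene-end peaks differed by 4.64 bp (adjusted p = 0.188, exact).

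**Figure D5:**
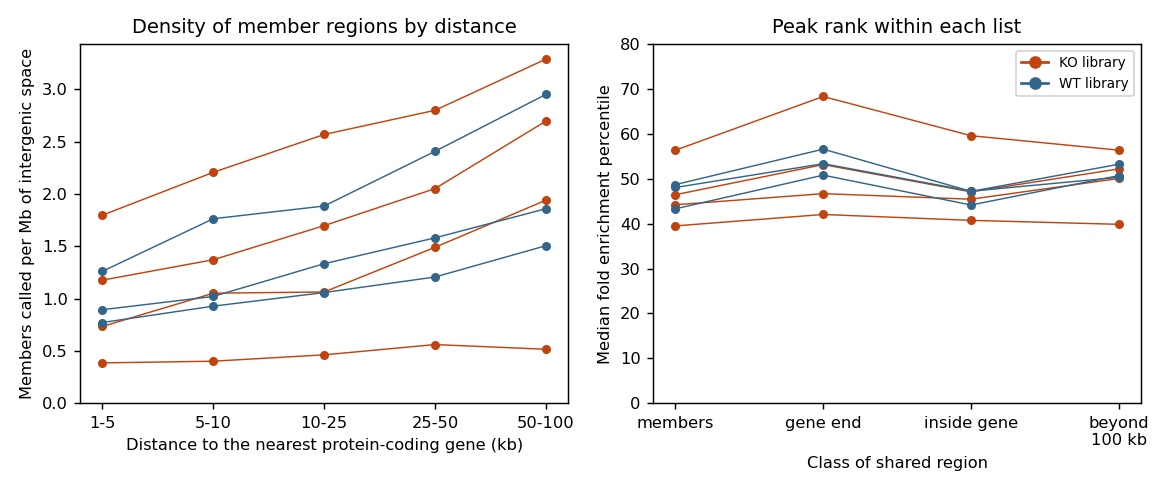
Left, members called per Mb of intergenic space by distance to the nearest gene (kb), 1 line per library. Right, median fold enrichment percentile of each library's peaks in members and in the other classes of regions called in 2 to 6 libraries. KO libraries are in orange and WT libraries in blue: density is higher at 50 to 100 kb than at 1 to 5 kb in 7 of 7 lines, and member peaks rank below gene-end peaks in 7 of 7.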

How the data were processed

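The 4 KO and 3 WT libraries used a Nextera kit (per the labels). The submitters' processing notes name MACS2, Bowtie2 2.3.5.1, deepTools 3.3.0, SAMtools 1.9, CASAVA 1.9, FastQC 0.11.8 and build GRCm38. For MACS2, neither version nor settings, nor whether reads were shifted for the transposase, is given in the sources used here. Each library has 1 broad peak list deposited by the authors, with a fold enrichment (a ratio over background), a −log10 p, a −log10 q and a score for each peak. The deposited −log10 q served for an alternative threshold and equal-length lists, and the score and the −log10 p were not used. Fold and q rank peaks within their own list. Read depth is unknown, so no counting interval could be given.

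Peaks were joined and placed against the RefSeq gene table of GRCm38.p6 with Python 3.11.15, pandas 2.3.3 and NumPy 2.4.6. Distances run between the nearest ends of region and gene span, and coordinates count from 1. Where a library had more than 1 peak in a region, as in 17 of 8141 member calls, the one with the highest −log10 q was used. Groups were compared by two-sided exact permutation over 35 splits, and classes by exact sign flips over 7 libraries, with Benjamini-Hochberg adjustment. Joining, placing and the permutation test of group means were checked on simulated data, where unchanged counts had the same call rate in every library. The sign flips, the similarity test and the Benjamini-Hochberg adjustment were not checked in this way. Named genes are those with most members, those of members called in 1 genotype alone, listed genes with 2 or more members, the highest-ranked members with 6 callers, L3mbtl3, members at the distance limits and non-coding genes touched. Some of the genes this rule names are not reported here. The members and lists were chosen with earlier results of these data known. Alternatives were joining within 500 bp, −log10 q of at least 2, equal list lengths, 50% coverage, limits of 50 and 5 kb, no gene of any type, each library left out and a replicate block.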

Additional observations from a re-analysis of the deposited data

Results flagged for a closer look

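Within the 4 KO libraries, 18 of 67 groups of values had a library standing far from the other 3. The groups were measures per library and member counts at named genes and over gene lists. Counts that were all equal were left out, and counts with 3 equal values and 1 other are always marked. The rate of about 1 in 20 for continuous values therefore does not apply. The counts are small whole numbers with many ties, and the groups share the same 4 libraries, so the marks are not independent. KO library 3, whose list was the shortest, was the low one in most. It called 0 members at Dkk2, Pcdh18, Trhr, Wdr20rt, Nkx2-1, Immp2l and Pcdh9, 1 at Lrrn1, E2f7 and Nrp1, 4 over the axon guidance list and 0 over the meningeal list. KO library 4, with the longest list, was the high one at genes such as Zfp217, with 2 members, and Emx2, with 1, and over the proneural bHLH list, with 9. KO library 2 was the low one at Cdh6, with 1 member, and KO library 1 the high one over the oligodendrocyte and astrocyte list, with 1. List length moves with these marks and its part in them was not tested.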

How the results depend on the processing

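The lists give no depth, and their lengths differ. With equal list lengths 832 regions met the rule in place of 2429, and 13 of the 53 named genes kept their number of members within 1.5 times, against 41 to 52 under the other settings except the 50 kb limit (22). The difference in members called (KO minus WT) was then −16.8, and −246 with the replicate block (exact p = 0.5). The difference in rank changed sign to 1.01 at −log10 q of at least 2, 2.33 for equal lists, 0.0979 with 50% coverage and 0.0862 with no gene of any type touched. Leaving out 1 library gave differences of −246 to 283 members, −3.30 to 2.32 in rank, −1.98 to −0.655 points in share and −0.0519 to 0.00332 in similarity. None of these passed 0.05. With 1 library left out the permutation test has too few splits to give a p under 0.05, so those cases say nothing about stability. Members in all KO and no WT libraries numbered 0 within 50 kb and 4 to 38 with 1 library left out, and those in all WT and no KO libraries 7 to 49. The gap to gene ends in rank was −4.73 at −log10 q of at least 2 and −5.39 with equal lists, no longer past 0.05. The gap to regions beyond 100 kb lost its call with joining within 500 bp (−3.82), −log10 q of at least 2 (−4.32), equal lists (−1.83), the 5 kb limit (−3.77), no gene of any type (−3.32) and equal weight per number of callers (−0.431). The width gap to them lost its call at −log10 q of at least 2 (−18.6 bp) and with equal lists (−26.3 bp), and the width gap to gene ends passed with 50% coverage (10.5 bp). The rank gap to regions inside genes turned to 0.109 with equal weight. With 1 library left out, these gaps ran from −6.98 to −5.40, −4.36 to −3.12, −1.06 to −0.272, and in width from 3.33 to 6.92, −13.8 to −11.8 and −2.75 to −0.833. With 6 libraries the smallest exact p is 0.0313 before adjustment, so calls lost when 1 is left out say nothing about stability, and the width gap to gene ends passed without WT library 3. The cause of these moves was not tested. The labels do not say whether replicate numbers pair the samples. Deviations of same-numbered libraries correlated at −0.0169, 0.00555 and 0.0410, and those of other pairs at −0.0956 to 0.0937. These values show no pairing but cannot exclude it. The block pairs replicates 1 to 3 and leaves out KO library 4, and its exact sign flips cannot give a p below 0.25. With the block, the share differed by −0.928 (exact p = 0.75) and the rank by −3.30 (exact p = 0.5). These differences and the one in members equal those without KO library 4. With the block 0 genes passed, and none could.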
